A study of Mus musculus with 6 samples.

Results

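Imprinted genes are expressed mainly from the chromosome inherited from the mother or mainly from that inherited from the father. They were taken as a list of 38 known mouse imprinted genes in 16 chromosomal domains, and 33 of them, in 15 domains, could be measured among the 19938 genes tested. The samples were neural precursor-like cells, immortalized in culture, which came from the embryonic brain (day 13.5) of C57BL/6J mice. Those of 3 knock-out samples carried a homozygous deletion of Lgi1, and 3 wild-type samples did not, and all were labelled as grown in RPMI with 1% serum once immortalized. Lgi1 encodes a secreted neuronal protein whose loss causes epilepsy, and the labels do not say which part of it was deleted, how the cells were immortalized or how many embryos or lines stand behind the 3 biological replicates of a genotype. Each sample was hybridised to 1 Affymetrix Mouse Gene 1.0 ST array, so that p-values reflect only how far these samples differ among themselves, and that spread may be technical. Levels are the deposited log2 intensities, whose median lay between 6.36 and 6.41 on the 6 arrays.

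The parental difference is laid down as DNA methylation in the egg or sperm and is kept through every later cell division by the maintenance methyltransferase and by proteins that hold the mark at imprinting control regions. Genes of a domain usually answer to 1 such region, often through a long non-coding RNA or a boundary element, so that neighbours can be expressed from opposite chromosomes. Many paternally expressed genes promote fetal growth, many maternally expressed genes restrain it, and several act in the developing brain. The arrays measured the total RNA of a gene and did not separate the parental alleles, so the allele given for each gene is that known for mouse tissues and was not measured here.

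Lgi1 itself did not check the labels, since its log2 levels were 4.53, 4.57 and 4.54 on the knock-out arrays and 4.61, 4.75 and 4.94 on the wild-type arrays, all under the background level of 5.67 (limma adjusted p = 0.0747, and 0.0463 with the replicate number as a block). That level is the 95th percentile of 1190 odorant and pheromone receptor genes, which these cells are not known to express. Xist, the RNA of the inactive X chromosome, averaged 12.44 in knock-out and 4.64 in wild-type cells. The Y-linked genes Eif2s3y, Uty and Kdm5d averaged 4.67, 4.82 and 5.24 in knock-out cells, under background, and 10.19, 10.03 and 9.03 in wild-type cells (log2 fold changes of −5.51, −5.21 and −3.80). By these genes the knock-out cells had a female and the wild-type cells a male pattern. The sex of the cells and the embryo or line behind them therefore cannot be told apart from the Lgi1 genotype in any result below. The cell type label was also met unevenly. Of 10 neural progenitor markers, 4 lay under 5.67 in knock-out and 1 in wild-type cells. Sox2, one of these markers, averaged 5.35 in knock-out and 11.26 in wild-type cells.

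Among the 33 measured imprinted genes 15 rose, 5 fell and 13 did not pass the test. A gene is said to have risen, fallen or changed at a limma p adjusted below 0.05 over all genes tested, and fold changes are knock-out over wild type. The 20 changed genes are 60.6% of those measured, while 31.6% of all 19938 genes passed. These counts take the samples as unpaired. With the replicate number as a block only Ndn changed its call among the members, to a rise, and 7000 of all genes passed. Rises made up 45.5% of the imprinted genes and 14.0% of all genes, and falls made up 15.2% and 17.6%. At least 2-fold rises were found for 7 members (21.2%, beside 3.05% of all genes) and at least 2-fold falls for 2 (6.06%, beside 2.27%). The median log2 fold change was +0.19 over the imprinted genes and −0.01 over all genes. All 3 knock-out arrays lay above all 3 wild-type arrays for 15 members (45.5%, beside 18.5% of all genes) and below them for 6 (18.2%, beside 23.7%), so that the groups did not overlap for 21, beside 42.3% of all genes. Detectable genes passed more readily: of the 24 members above background in at least 1 genotype 13 rose and 5 fell, while 49.7% of all 11674 such genes passed, though a gene can enter this comparison through the genotype where it is high. The members were chosen with results of these data known, so these shares are a description and no test of the list was made.

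**Figure D1:**
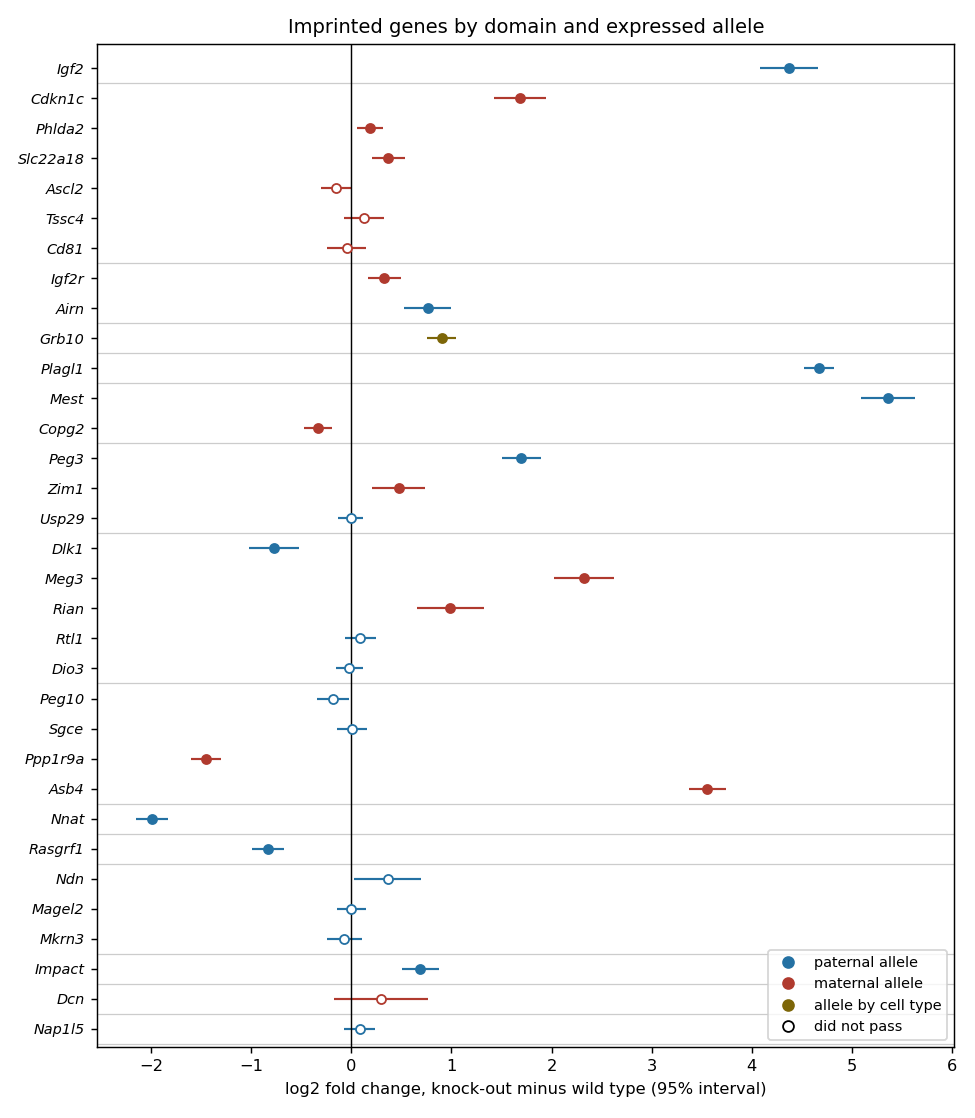
Log2 fold change, knock-out minus wild type, of the 33 measured imprinted genes with 95% intervals (n = 3 arrays per genotype), grouped by domain between the grey lines. Colours give the allele known to be expressed, and open circles mark the 13 genes that did not pass. Mest, Plagl1, Igf2 and Asb4 lie above 3 on the log2 scale, and Nnat and Ppp1r9a lie below −1.

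Both expressed alleles were represented among the rises and the falls, and the counts by allele stand beside 14.0% of all genes that rose and 17.6% that fell. Of 18 measured genes known as paternally expressed, 6 rose (33.3%), 3 fell (16.7%) and 9 did not pass, with a median log2 fold change of +0.05. Of 14 known as maternally expressed, 8 rose (57.1%), 2 fell (14.3%) and 4 did not pass, with a median of +0.31. Under background in both genotypes lay 6 of the paternally and 3 of the maternally expressed genes, the latter including the risen Phlda2 and Zim1. The alleles were thus not compared at like levels. Grb10, whose expressed allele differs between neurons and other cells, rose. At least 2-fold rises were found for 4 paternally expressed genes (Igf2, Plagl1, Mest and Peg3) and 3 maternally expressed genes (Cdkn1c, Meg3 and Asb4), and at least 2-fold falls for 1 of each (Nnat and Ppp1r9a). Of 5 measured genes whose imprinting is known mainly from the placenta, none rose, Ppp1r9a fell, and Ascl2, Tssc4, Cd81 and Dcn did not pass. The shares that fell, 1 of 5 in the placental group included, were near that over all genes.

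The rises of Mest, Plagl1 and Igf2 were the largest among the 33 genes. Mest, or Peg1, a paternally expressed member of the alpha/beta hydrolase fold family known from mesoderm and fetal growth, had log2 levels of 12.89, 12.89 and 12.95 on the knock-out arrays and 7.27, 7.86 and 7.51 on the wild-type arrays (means 12.91 ± 0.0364 and 7.55 ± 0.294, SD, n = 3 each). It was 41.1-fold higher in knock-out cells (log2 fold change +5.36, SE 0.12, limma adjusted p = 4.08e-10). Plagl1, or Zac1, a zinc finger transcription factor that arrests the cell cycle and regulates other imprinted genes, stood at 11.75, 11.86 and 11.72 on the knock-out arrays and at 7.03, 7.10 and 7.18 on the wild-type arrays. The groups lay far apart for both genes, and Plagl1 was 25.5-fold higher (log2 +4.67, SE 0.07, limma adjusted p = 1.92e-11). Igf2, a fetal growth factor that signals through the IGF1 and insulin receptors, had levels of 9.94, 10.18 and 10.26 in knock-out cells and 5.52, 5.70 and 6.05 in wild-type cells. Its wild-type mean of 5.76 ± 0.27 was close to the background level, which limits the fold change of 20.7 (log2 +4.37, SE 0.13, limma adjusted p = 2.49e-09).

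The neighbours of these 3 genes did not share rises of that size. Copg2, a coat protein subunit that lies tail to tail with Mest and is maternally expressed, fell, with 10.11, 10.19 and 10.17 in knock-out cells against 10.46, 10.56 and 10.45 in wild-type cells (log2 −0.34, SE 0.06, limma adjusted p = 0.00192). Mir335, a miRNA gene inside Mest, rose by 0.40 (SE 0.07, limma adjusted p = 0.00167). Of the 5 genes measured on each side of the Mest domain, 2 rose and 4 fell with a median of −0.03, and among those beside Plagl1, 2 rose and 1 fell with a median of +0.10. Next to Igf2, Mir483, a miRNA gene within it, did not pass (log2 −0.03, 95% interval −0.16 to 0.10). Only Lsp1 (log2 +0.33) changed among the 10 genes flanking the Igf2 and H19 domain. Of these, Tspan32, R74862 and Trpm5 lie inside the adjoining Kcnq1 domain, whose listed genes (3 of 6 measured rose) were left out of the flanks. H19, the maternally expressed RNA that shares its enhancers with Igf2, had no probe set with its symbol alone and was not analysed here. The flanking genes with the largest changes were Col1a2 (log2 +5.30), Dync1i1 (+2.91), Ttc39c (−2.17) and Zfp521 (+2.17), the first pair beside the Peg10-Sgce domain and the other two beside Impact. Over the 155 different flanking genes of the 16 domains, 25 rose and 27 fell (33.5%, beside 31.6% of all genes), with a median log2 fold change of −0.0017. With the replicate number as a block 4 more of them passed, Ltv1 beside Plagl1 (log2 +0.23, adjusted p = 0.0190), Gng11 beside Peg10-Sgce (+0.21, 0.0356), and Fam161a (+0.19, 0.0447) and Usp34 (−0.22, 0.0172) beside Zrsr1.

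**Figure D2:**
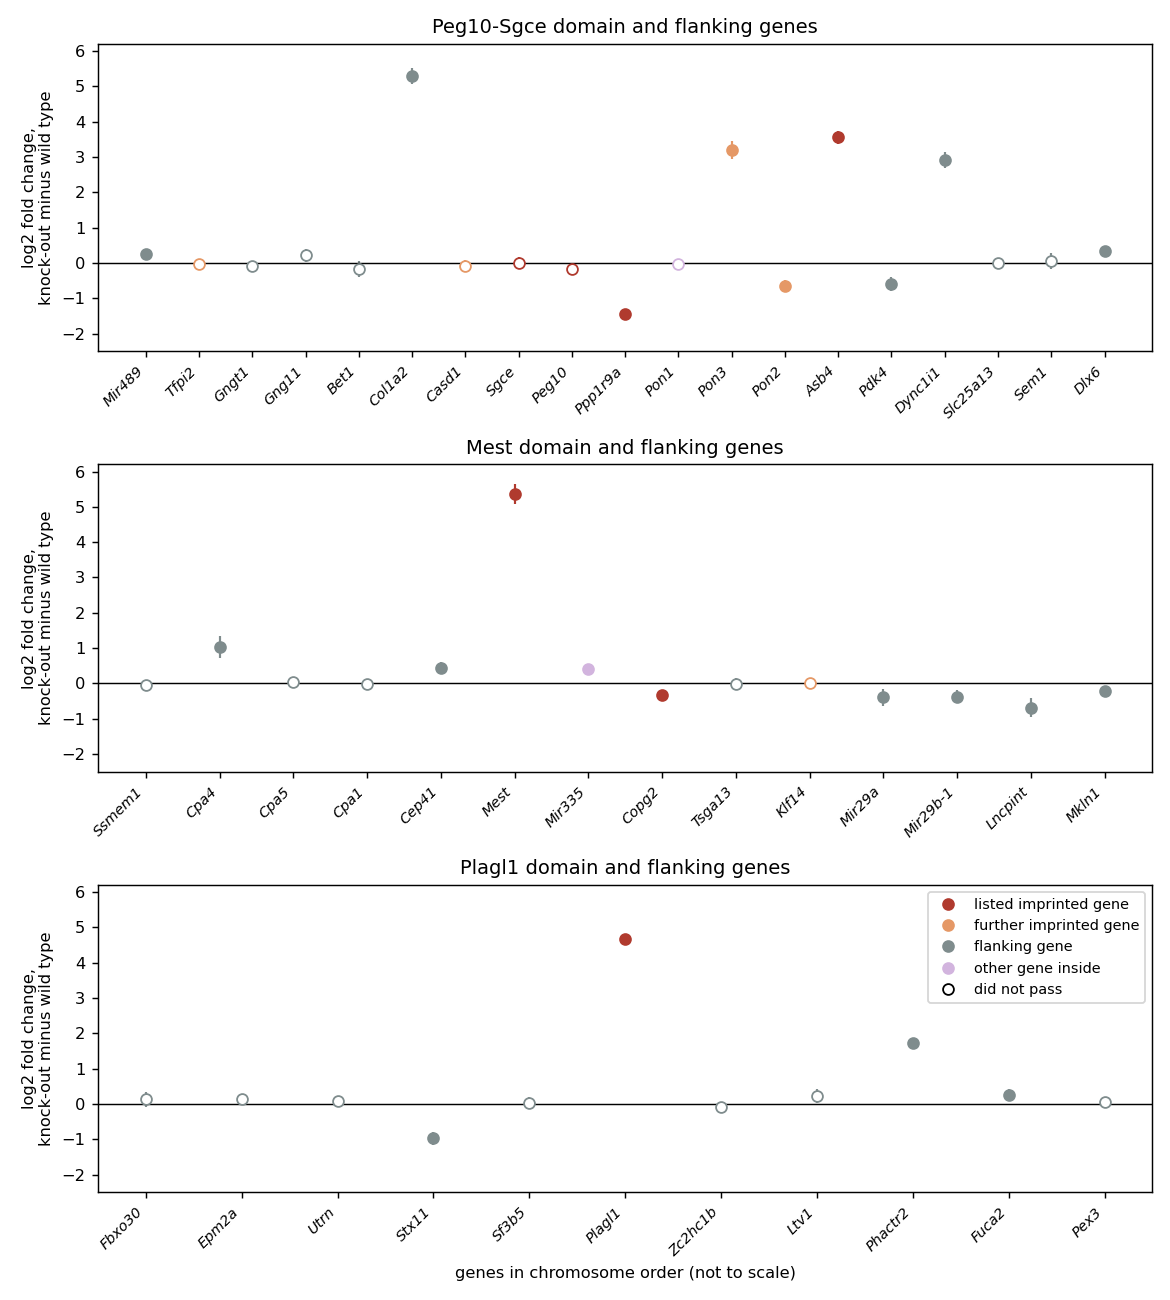
Log2 fold change, knock-out minus wild type, with 95% intervals (n = 3 arrays per genotype) of the genes of the Peg10-Sgce, Mest and Plagl1 domains and of 5 flanking genes on each side, in chromosome order and not to scale. Open circles mark genes that did not pass. Mest (+5.36) and Plagl1 (+4.67) stand above flanking genes that lie between −0.97 and +1.71, while in the upper panel Col1a2, Pon3, Asb4 and Dync1i1 are high and Sgce and Peg10 lie near 0.

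Peg3 and Nnat are, like Mest and Plagl1, paternally expressed genes whose imprint is a methylation mark set in the egg over or beside the promoter, and Peg3 rose while Nnat fell. Peg3, a zinc finger protein of growth and maternal behaviour, had log2 levels of 8.75, 8.82 and 8.84 on the knock-out arrays and 7.17, 7.24 and 6.91 on the wild-type arrays. It was 3.24-fold higher in knock-out cells (log2 +1.70, SE 0.09, limma adjusted p = 1.67e-07), and its groups did not overlap. Nnat, or neuronatin, a small membrane protein of developing neurons and of fat, had 5.80, 5.59 and 5.74 on the knock-out arrays and 7.64, 7.75 and 7.70 on the wild-type arrays. It was 3.98-fold higher in wild-type cells (log2 −1.99, SE 0.07, limma adjusted p = 1.01e-08), and its knock-out mean of 5.71 was at the background level. Nnat lies inside an intron of Blcap, which did not pass (log2 +0.07, limma adjusted p = 0.588).

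The sequences upstream of these 4 genes are shown because their promoters carry, or lie next to, the imprint itself and the genes changed in both directions. Each is the 250 bases before the start of the gene from RefSeq (build GRCm38.p6), and where a gene has several starts the window with the most CG pairs was taken. The windows are Mest at chr6:30737800-30738049 (plus strand), Plagl1 at chr10:13090582-13090831 (plus strand), Peg3 at chr7:6730420-6730669 (minus strand) and Nnat at chr2:157559828-157560077 (plus strand). Capitals mark TGCCGC, the core motif bound by ZFP57 when methylated, or its reverse complement GCGGCA.
Mest: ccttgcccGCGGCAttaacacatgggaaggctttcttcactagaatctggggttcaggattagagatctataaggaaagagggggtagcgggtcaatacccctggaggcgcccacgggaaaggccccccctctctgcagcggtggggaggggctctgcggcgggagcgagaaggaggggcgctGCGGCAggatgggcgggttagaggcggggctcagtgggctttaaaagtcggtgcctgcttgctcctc
Plagl1: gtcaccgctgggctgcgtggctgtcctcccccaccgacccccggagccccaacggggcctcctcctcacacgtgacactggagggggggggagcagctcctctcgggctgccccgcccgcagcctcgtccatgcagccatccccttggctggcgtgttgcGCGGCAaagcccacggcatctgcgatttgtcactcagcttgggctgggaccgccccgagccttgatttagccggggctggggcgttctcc
Peg3: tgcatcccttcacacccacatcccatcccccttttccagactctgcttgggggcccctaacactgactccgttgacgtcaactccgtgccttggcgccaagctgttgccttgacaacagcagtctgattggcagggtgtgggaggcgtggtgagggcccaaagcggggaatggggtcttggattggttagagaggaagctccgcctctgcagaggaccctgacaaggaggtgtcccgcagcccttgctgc
Nnat: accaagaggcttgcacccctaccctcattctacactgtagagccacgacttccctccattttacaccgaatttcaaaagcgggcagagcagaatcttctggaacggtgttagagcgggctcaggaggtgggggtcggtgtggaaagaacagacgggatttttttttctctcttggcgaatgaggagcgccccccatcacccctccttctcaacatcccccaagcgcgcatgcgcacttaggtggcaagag
The Mest window held 2 matches and 14 CG pairs, the Plagl1 window 1 match and 19 CG pairs, the Peg3 window no match and 8 CG pairs, and the Nnat window no match and 12 CG pairs. Of the 31 listed genes found in the RefSeq promoter table, 6 had a match in such a window (19.4%), against 2472 of 27025 genes (9.15%), and their median number of CG pairs was 14 against 6. A match is a description of letters in these windows and does not show binding, and control regions that lie elsewhere in a domain were not examined.

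**Figure D3:**
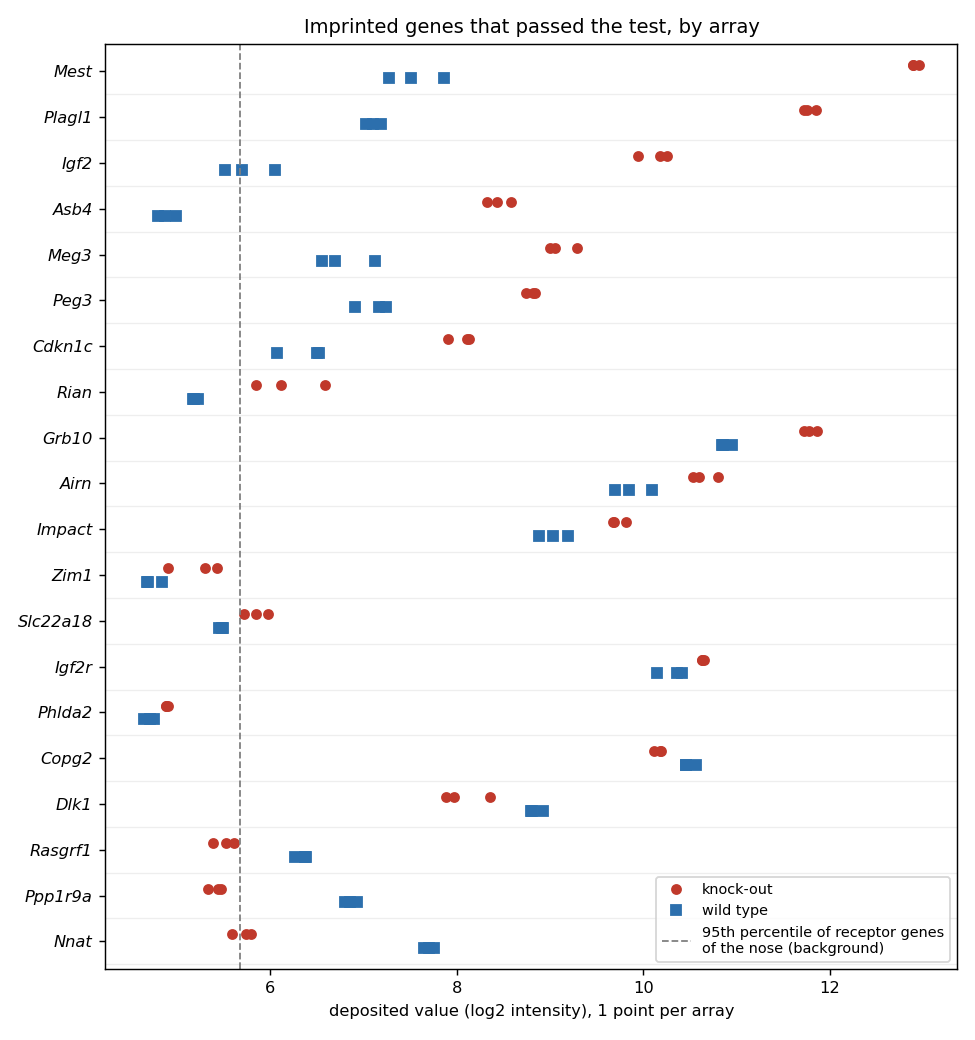
Deposited log2 intensities of the 20 imprinted genes that passed, on each of the 3 knock-out (circles) and 3 wild-type arrays (squares), ordered by log2 fold change. The dashed line is the background level of 5.67. No gene shown has overlapping groups, and the points of Zim1 and Phlda2 lie left of the line in both genotypes.

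Genes of the Kcnq1 domain, most of them maternally expressed, changed in part. Cdkn1c, or p57KIP2, an inhibitor of cyclin-dependent kinases that holds back proliferation and fetal growth, had log2 levels of 7.91, 8.11 and 8.13 in knock-out cells and 6.50, 6.52 and 6.08 in wild-type cells (3.21-fold higher, log2 +1.68, SE 0.12, limma adjusted p = 1.78e-06). Every knock-out array lay above every wild-type array. Slc22a18, a membrane transporter, had 5.98, 5.72 and 5.85 in knock-out cells against 5.49, 5.46 and 5.50 in wild-type cells (log2 +0.37, SE 0.07, limma adjusted p = 0.00326), a small rise at the edge of background. Phlda2, which limits placental growth, stood at 4.91, 4.88 and 4.88 in knock-out cells and 4.71, 4.75 and 4.65 in wild-type cells, all under the background level. Its log2 fold change of +0.19 (SE 0.06, limma adjusted p = 0.0342) passed narrowly. Its call was lost with each array left out in turn except wild-type replicate 2, and the alternatives gave it adjusted p-values of 0.0225 to 0.104. Cd81, a tetraspanin, did not pass (log2 −0.05, 95% interval −0.24 to 0.15), nor did Tssc4 (+0.12, −0.08 to 0.32) or the trophoblast transcription factor Ascl2 (−0.15, −0.31 to 0.0040). Kcnq1ot1, the paternally expressed antisense RNA that silences the domain, had no probe set with its symbol alone and was not analysed here.

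Among receptors and signalling genes of growth, Igf2r, Airn and Grb10 rose. Igf2r, the maternally expressed receptor that carries IGF2 to lysosomes for degradation, had 10.63, 10.63 and 10.65 in knock-out cells and 10.41, 10.15 and 10.36 in wild-type cells (log2 +0.33, SE 0.08, limma adjusted p = 0.00684). Airn, the paternally expressed RNA that runs antisense through Igf2r, had 10.80, 10.59 and 10.53 in knock-out cells and 10.09, 9.69 and 9.84 in wild-type cells (log2 +0.76, SE 0.11, limma adjusted p = 2.96e-04). Both RNAs of this antisense pair were thus higher on every knock-out array. Grb10, an adaptor that dampens insulin and IGF1 receptor signalling, had 11.77, 11.86 and 11.72 in knock-out cells and 10.85, 10.95 and 10.84 in wild-type cells (1.87-fold, log2 +0.90, SE 0.07, limma adjusted p = 2.32e-06). Of its 10 flanking genes Cobl (+1.84) and Egfr (+1.67) rose and 8 did not pass, with a median of −0.02. The reference gene table has Igf2r overlapping Airn, Mest overlapping Copg2, and Rtl1 overlapping both Meg3 and Rian, and the sources used here do not give the strand and place of the probes, so values of such pairs may share signal.

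The Dlk1-Dio3 domain on chromosome 12 held a fall of the paternally expressed Dlk1 and rises of the maternally expressed Meg3 and Rian. Meg3, or Gtl2, the first of the maternally expressed non-coding RNAs, had log2 levels of 9.289, 9.005 and 9.055 on the knock-out arrays and 7.128, 6.556 and 6.698 on the wild-type arrays (log2 +2.32, SE 0.14, limma adjusted p = 4.36e-07). Rian, the next maternal RNA and a host of small nucleolar RNAs, had 6.59, 6.11 and 5.84 in knock-out cells and 5.17, 5.22 and 5.19 in wild-type cells (log2 +0.99, SE 0.15, limma adjusted p = 5.54e-04). Both were higher on every knock-out array, with a wild-type level of Rian under background. Dlk1, a paternally expressed membrane protein related to Notch ligands that keeps precursor cells undifferentiated, had 7.98, 8.35 and 7.88 in knock-out cells and 8.92, 8.80 and 8.81 in wild-type cells. It fell by 0.77 on the log2 scale (SE 0.11, limma adjusted p = 3.79e-04). The paternally expressed Rtl1, a gene derived from a retrotransposon, and Dio3, which inactivates thyroid hormone, lay under background in both genotypes and did not pass (log2 +0.09, 95% interval −0.07 to 0.25, and −0.02, −0.16 to 0.11).

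The small RNA genes between Meg3 and Dio3 are cut from the maternal transcripts. Of 43 such genes with a row, 26 rose, none fell and 17 did not pass (60.5%, beside 31.6% of all genes), and all 43 had a log2 fold change above 0, from +0.0093 to +2.91. Of the 40 among them that are miRNA genes, 24 rose (60.0%), whereas of 257 other miRNA genes on the array 24 rose and 20 fell (17.1%). The median log2 fold change was +0.31 for the miRNA genes of the domain and +0.01 for the others. These rows were picked for their place after the values had been seen, they share transcripts and cannot count as independent, and 23 of the 43 lay under background in both genotypes. With the replicate number as a block, Mir136, Mir411, Mir494 and Mir541 passed as well (adjusted p of 0.0315, 0.0317, 0.0432 and 0.0105, log2 +0.21 to +0.36).

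Mir377, Mir382 and Mir134 were the miRNA genes of the domain with at least 2-fold rises. Mir377 had log2 levels of 8.27, 8.10 and 8.02 in knock-out cells and 5.99, 5.49 and 5.65 in wild-type cells (log2 +2.42, SE 0.12, limma adjusted p = 1.17e-07). Mir382 had 6.889, 6.423 and 7.001 in knock-out cells and 5.278, 5.196 and 5.176 in wild-type cells (+1.55, SE 0.13), and Mir134, known for limiting dendritic spine size in neurons, had 6.86, 6.77 and 7.08 in knock-out cells against 5.66, 5.59 and 5.66 in wild-type cells (+1.27, SE 0.08). The groups did not overlap for any of them. The snoRNA gene DQ267102 had 9.57, 10.09 and 10.22 in knock-out cells and 6.92, 7.11 and 7.11 in wild-type cells (+2.91, SE 0.14, limma adjusted p = 1.22e-07). Such rows may measure the precursor transcript, since the sources used here do not say which part of it the probes cover. The mature sequences of the 3 miRNA genes, from RefSeq, are given with the seed (bases 2 to 8) in capitals.
mmu-miR-377-5p: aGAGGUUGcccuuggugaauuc
mmu-miR-377-3p: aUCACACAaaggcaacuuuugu
mmu-miR-382-5p: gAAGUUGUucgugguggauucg
mmu-miR-382-3p: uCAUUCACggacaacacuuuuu
mmu-miR-134-5p: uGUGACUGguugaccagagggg
mmu-miR-134-3p: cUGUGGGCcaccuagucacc
These 6 seeds differ from one another. This source gave 76 mature arms of the 40 miRNA genes, with only the 5p arm of Mir376c, Mir487b and Mir539 and only the 3p arm of Mir485. A seed shared with an arm that was not given would thus be missed. The 76 arms had 74 distinct seeds. Among them 2 seeds were shared by arms of different genes, AUGUAAC by mmu-miR-379-3p and mmu-miR-411-3p and UGGAUAU by mmu-miR-376b-5p and mmu-miR-376c-5p. Their genes Mir379, Mir376b and Mir376c rose (log2 +0.32, +0.34 and +0.39) and Mir411 did not pass (+0.21, limma adjusted p = 0.0696).

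**Figure D4:**
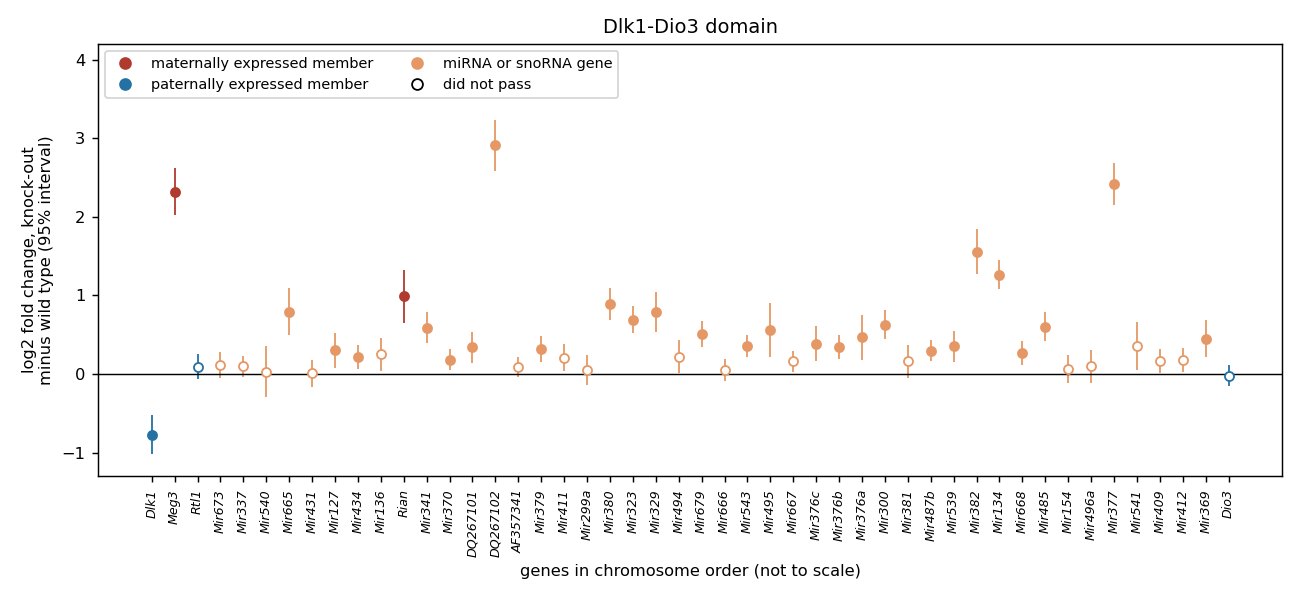
Log2 fold change, knock-out minus wild type, with 95% intervals (n = 3 arrays per genotype) of the 48 genes of the Dlk1-Dio3 domain with a row, in chromosome order and not to scale. Open circles did not pass. Dlk1 lies at −0.77, Meg3 at +2.32, and the miRNA and snoRNA genes lie between +0.0093 and +2.91.

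Outside the domain, of the 10 flanking genes on chromosome 12 none rose and 2 fell, Wars (log2 −0.38) and Hsp90aa1 (−0.20), and their median was −0.10. None of 7 further miRNA genes on the chromosome passed, with a median of −0.06. The median log2 fold change of all 653 genes of chromosome 12 was −0.06. The 9 chromosomes with measured members differed in their shares, beside 14.0% of all genes that rose and 17.6% that fell. Rises ran from 7.55% (chromosome 17) to 21.4% (chromosome 10), and falls from 6.39% (chromosome 7) to 30.3% (chromosome 18). On chromosome 7, which carries Igf2, Cdkn1c and Peg3 among others, 15.5% of 1738 genes rose. The part of such differences in the changes of the members was not tested.

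Neighbours in the Peg10-Sgce domain on chromosome 6 diverged. Asb4, a maternally expressed subunit of ubiquitin ligases known from hypothalamic neurons and blood vessels, had log2 levels of 8.432, 8.321 and 8.587 on the knock-out arrays and 4.996, 4.798 and 4.874 on the wild-type arrays. It rose by 3.56 (SE 0.08, limma adjusted p = 4.66e-10), and as the wild-type arrays lay under background the 11.8-fold change is limited by it. Ppp1r9a, or neurabin, which ties protein phosphatase 1 to actin in neurons, had 5.33, 5.45 and 5.47 in knock-out cells and 6.94, 6.86 and 6.81 in wild-type cells and fell by 1.45 on the log2 scale (SE 0.07, limma adjusted p = 6.48e-08), a size limited by knock-out arrays that lay under background. Peg10, a gene derived from a retrotransposon that is needed in the placenta, had 11.42, 11.28 and 11.43 in knock-out cells and 11.47, 11.62 and 11.59 in wild-type cells. Its groups did not overlap, yet it did not pass (log2 −0.18, 95% interval −0.34 to −0.03, limma adjusted p = 0.0780). Sgce, or epsilon-sarcoglycan, mutated in myoclonus-dystonia, shares the promoter region of Peg10 and differed by less than 0.16 in either direction by its 95% interval (log2 +0.01, −0.14 to 0.16). Between Ppp1r9a and Asb4, the paraoxonase genes Pon3 and Pon2, reported as imprinted in the placenta, rose by 3.20 and fell by 0.64. The nearest flanking gene was Col1a2 on the side of Sgce (+5.30) and Pdk4, which fell, on the side of Asb4 (−0.60). Dync1i1 (+2.91) followed beyond Pdk4. Of the 10 flanking genes 4 rose, 1 fell and 5 did not pass, with a median of +0.13.

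Rasgrf1 fell, and Impact and Zim1 rose. Rasgrf1, a paternally expressed activator of Ras in neurons, had 5.39, 5.61 and 5.52 in knock-out cells and 6.38, 6.38 and 6.27 in wild-type cells (log2 −0.83, SE 0.07, limma adjusted p = 1.07e-05), with the knock-out arrays under background. Impact, a paternally expressed inhibitor of the GCN2 stress pathway, had 9.82, 9.69 and 9.68 in knock-out cells and 9.03, 9.19 and 8.88 in wild-type cells (log2 +0.69, SE 0.08, limma adjusted p = 1.23e-04). Zim1, a maternally expressed zinc finger gene next to Peg3, had 5.30, 5.43 and 4.90 in knock-out cells and 4.69, 4.84 and 4.68 in wild-type cells, under background throughout (log2 +0.47, SE 0.12, limma adjusted p = 0.0123). Usp29, a ubiquitin protease gene that shares the Peg3 promoter region, did not pass and lay under background (log2 −0.0081, 95% interval −0.13 to 0.12).

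None of the 3 measured genes of the Prader-Willi domain passed. Ndn, or necdin, a MAGE family protein that promotes neuronal differentiation, had log2 levels of 9.53, 10.14 and 9.65 in knock-out cells and 9.34, 9.62 and 9.27 in wild-type cells, so that the groups overlapped (log2 +0.36, 95% interval 0.03 to 0.69, limma adjusted p = 0.0992). Each knock-out array lay above the wild-type array of the same replicate number, and with that number as a block Ndn passed (adjusted p = 0.00444). It also passed without knock-out replicate 1 (log2 +0.48, adjusted p = 0.0412), and without knock-out replicate 2 its log2 fold change was +0.18 (adjusted p = 0.300). Magel2, a further MAGE gene, and Mkrn3, whose loss brings early puberty in people, lay under background (log2 −0.0009, 95% interval −0.14 to 0.14, and −0.07, −0.24 to 0.10). Snrpn and Ube3a were found only on probe sets annotated with several genes and were not analysed here. The matrix proteoglycan gene Dcn varied widely in both genotypes, with 7.37, 7.76 and 6.94 in knock-out cells and 6.69, 7.06 and 7.42 in wild-type cells (log2 +0.30, 95% interval −0.17 to 0.76). Nap1l5, a gene related to histone chaperones, lay under background (log2 +0.08, −0.07 to 0.23), while Herc3, in which it lies, fell by 1.61 on the log2 scale (limma adjusted p = 7.39e-08), and Zrsr1 had no probe set with its symbol alone and was not analysed here.

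Of 27 measured regulators that set, keep or erase imprints or shape imprinted chromatin, 4 rose, 10 fell and 13 did not pass (51.9%, beside 31.6% of all genes). Of these regulators 24 lay above background, and 49.7% of all genes above background passed, so the share in both directions together is near that of detectable genes. By direction, 14.8% of the regulators rose and 37.0% fell. Beside these stand 22.0% and 27.7% of all genes above background, and 14.0% and 17.6% of all genes. The median log2 fold change was −0.15. Tet1, which oxidises methylated cytosine, rose most among them, with 9.90, 9.74 and 9.56 in knock-out cells and 8.21, 7.40 and 7.94 in wild-type cells (log2 +1.89, SE 0.17, limma adjusted p = 1.53e-05). Trim28, the co-repressor recruited by ZFP57, rose by 0.53 (SE 0.06, limma adjusted p = 5.74e-05), and Zfp57 itself fell, with 9.82, 9.49 and 9.92 in knock-out cells and 10.35, 10.17 and 10.25 in wild-type cells (log2 −0.52, SE 0.11, limma adjusted p = 0.00381). The maintenance methyltransferase Dnmt1 and its partner Uhrf1 fell by 0.34 and 0.24 on the log2 scale (limma adjusted p = 0.00212 and 0.0220). The de novo methyltransferase Dnmt3b rose by 0.20 (limma adjusted p = 0.0452), and Dnmt3a (−0.16, 95% interval −0.33 to 0.0002) and the boundary factor Ctcf (+0.01, −0.19 to 0.21) did not pass. The chromatin protein gene Arid4a fell by 0.61 (SE 0.12). With the replicate number as a block, Zfp445 and Setdb1 passed (adjusted p of 0.0418 and 0.0490) and Dppa3 did not (adjusted p = 0.0511). DNA methylation was not measured.

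A second list of 27 measured imprinted genes, many of them imprinted in the placenta or in few tissues, was also counted. Of these, 5 rose, 2 fell and 20 did not pass (25.9%, beside 31.6% of all genes), with a median log2 fold change of +0.0033. Besides Pon3 and Pon2, Slc38a4, a paternally expressed amino acid transporter, had 8.39, 8.29 and 8.47 in knock-out cells and 5.62, 5.55 and 5.94 in wild-type cells (log2 +2.68, SE 0.10, limma adjusted p = 1.34e-08). H13, which encodes signal peptide peptidase, rose by 0.71 (SE 0.07, limma adjusted p = 1.99e-05).

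Markers of cell types were also compared, and their counts stand beside 14.0% of all genes that rose and 17.6% that fell. All 10 markers of fibroblasts and meninges rose in knock-out cells, most among them Postn (log2 +5.77), Col1a2 (+5.30), Thy1 (+3.72) and Col3a1 (+2.60), and the log2 of their summed intensities was 14.19 to 14.33 on the knock-out arrays and 12.38 to 12.65 on the wild-type arrays. Of 10 neural progenitor markers none rose and 5 fell, namely Sox2 (log2 −5.92), Fabp7 (−3.21), Nes (−2.01), Pax6 (−1.69) and Slc1a3 (−0.41), with summed levels of 13.64 to 13.73 on the knock-out arrays and 14.01 to 14.16 on the wild-type arrays. Their part in the changes of the imprinted genes was not tested. Of 5 trophoblast markers none passed and 4 lay under background in both genotypes, as did all 5 microglia markers. Skeletal muscle markers, which were included since several imprinted genes are known from muscle, gave 1 fall (Des, log2 −0.32) and no rise among 6. Astrocyte markers gave 1 fall of 5 (Aqp4, −2.10), neuron markers 1 rise (Map2, +0.90) and 2 falls (Syt1, −0.92, and Gap43, −0.50) of 8, oligodendrocyte lineage markers 1 rise (Cspg4, +0.82) and 1 fall (Mbp, −0.87) of 5, and endothelial markers 1 rise (Tek, +3.14) and 1 fall (Kdr, −0.44) of 5. Astrocyte markers summed to 10.22 to 10.56 on the knock-out arrays and 10.61 to 10.91 on the wild-type arrays, and neuron markers to 11.10 to 11.22 on the knock-out arrays and 10.46 to 10.58 on the wild-type arrays. Endothelial markers summed to 8.50 to 8.80 on the knock-out arrays and 7.22 to 7.37 on the wild-type arrays, and those of the oligodendrocyte lineage to 8.15 to 8.32 on the knock-out arrays and 8.06 to 8.18 on the wild-type arrays. With the replicate number as a block Msi1 also passed as higher (log2 +0.31, adjusted p = 0.0187) and Stmn2, Tubb3 and Gja1 as lower (adjusted p of 0.0349, 0.0419 and 0.0114). The defining endothelial markers Pecam1 and Cdh5 and the astrocyte marker Gfap lay under background in both genotypes. So did Des, Kdr and Gap43, which fell, and Tubb3, which passed only with the block. With so few markers a list, 1 or 2 changes of 5 and 3 of 8 lie near the share over all genes. The neuron sum was carried by Map2 (means of 10.95 in knock-out and 10.05 in wild-type cells), the endothelial sum by Tek (8.21 in knock-out and 5.07 in wild-type cells), and the progenitor sum by Vim, which did not pass (13.52 in knock-out and 13.53 in wild-type cells). In these bulk samples fewer cells of a type and less RNA per cell cannot be told apart.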

How the data were processed

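RNA of 3 Lgi1 knock-out and 3 wild-type samples was measured on 1-colour arrays, labelled from 250 ng total RNA. The deposited values are on a log2 scale, as judged from their range, and Partek is named, with no version, per the submitters' processing notes; the sources used here do not give the background correction, normalization or summarization, and the values were used without further scaling. Of 35556 probe sets, 21789 had 1 gene symbol in GEO's platform annotation, 1621 several and 12146 none. Only those with 1 symbol were used, 21698 of which matched the reference gene table (GRCm38.p6) by gene ID, and for genes with several the one with the highest mean was kept, which left 19938 genes. That table gave the gene order, the overlaps, the chromosomes and the classes of miRNA and snoRNA genes. Every measured member had 1 such probe set.

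The 2 genotypes were tested by limma (version 3.58.1, R version 4.3.3) through lmFit and eBayes, with 4 residual degrees of freedom before moderation, Benjamini-Hochberg adjustment over all genes, a threshold of 0.05 and 7720 genes at an unadjusted p under 0.05. Adjusted p-values are from this fit unless the sentence names the block, a left-out array or another alternative. On simulated data with the 19938 genes, 72% of 50 genes changed by 0.5 and 96% of 50 changed by 1 on the log2 scale were recovered, and 7 unchanged genes were called. The simulation changed far fewer genes than the 6296 that passed here and drew the noise of each array separately. Its shares therefore check the code and do not give the recovery in these data. The members, their domains and alleles (from textbook knowledge), and the lists of regulators, further imprinted genes and markers were chosen with earlier results of these data known. All measured members are named, those that passed with their array values (Ndn, Peg10 and Dcn also, chosen after their values were seen), and of each other list the 4 members with the largest change among those that passed, with Dnmt1, Dnmt3a, Dnmt3b, Uhrf1, Zfp57, Trim28 and Ctcf; any further gene, and the background level, were chosen after the values were seen. Flanking genes were the 5 genes with a row on each side of a domain, listed imprinted genes left out. Flanks of a domain can thus lie inside an adjoining domain, as between Igf2-H19 and Kcnq1, where Mir483 is a Kcnq1 flank.

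The titles number the replicates 1 to 3 in both genotypes. Over all genes, the deviations of 2 arrays from the mean of their own genotype had correlations of 0.187 to 0.288 where the number was shared. Where it was not, they ran from −0.185 to −0.0047. Deviations within a genotype sum to 0, so the negative values follow from the positive ones and are no separate evidence. The positive values at all 3 shared numbers are what bears on pairing. The numbers may therefore pair the samples, but the labels name no pairing, and all counts and shares come from the fit without it unless stated. The adjusted p of a fit with the number as a block is printed where it alters a call of an imprinted gene, a regulator, a flanking or small RNA gene or a marker. The labels give no scan date or other batch. The number of arrays limits the precision.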

Additional observations from a re-analysis of the deposited data

How the results depend on the processing

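Results were recomputed with the replicate block, after median centring or quantile normalization of the arrays, over genes above the median or the 25th percentile of mean level, with probe sets averaged, with array weights, with an intensity trend in a robust fit, at a threshold of 0.01, and without each array in turn. Members higher in knock-out numbered 11 to 16 and members lower 3 to 7 over these, beside 15 and 5. The count of 3 arose among genes above the median level, where 20 members were tested. Leaving out 1 array gave 14 to 15 members higher, 5 lower and 5485 to 5803 genes called, beside 6296. The replicate block gave 16 members higher, 5 lower and 7000 genes called, and among the members it changed the call of Ndn alone. Median centring moved the median of all genes from −0.01 to −0.06, and under it Phlda2 lost its call (adjusted p = 0.0952) and Ascl2 (0.0485) and Peg10 (0.0339) passed as lower; Peg10 also passed with the intensity trend (0.0482). The cause was not tested. Changes of sign were found only for genes that did not pass. These were Cd81 (+0.035 without wild-type replicate 3), Usp29 (+0.0016 without wild-type replicate 1), Dio3 (+0.0073 without knock-out replicate 1), Magel2 (+0.013 without knock-out replicate 3 and +0.047 without wild-type replicate 1) and Sgce (−0.036 with median centring, −0.027 without knock-out replicate 2 and −0.017 without wild-type replicate 3). Over the left-out arrays the log2 fold change ran from −0.129 to +0.035 for Cd81, −0.0235 to +0.0016 for Usp29, −0.0466 to +0.0073 for Dio3, −0.0321 to +0.047 for Magel2 and −0.027 to +0.0542 for Sgce. Signal near background limits 9 of the 33 members, which lay under it in both genotypes, and the size of change of those under it in 1 genotype (Slc22a18, Rian and Asb4 in wild type, Ppp1r9a and Rasgrf1 in knock-out) or close to it (Igf2 in wild type, Nnat in knock-out).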
